A study of Mus musculus with 6 samples.

Results

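Colec11, Lhx2, Des, Pdgfrb, Wnt2, Igfbp3 and Sfrp1 are genes of hepatic stellate cells and of other stromal and mural cells. They were taken by name as a list of 7 of the 477 genes on the smaller Xenium panel, and 6 of them, all but Colec11, were also among the 5050 genes of the larger panel. Xenium images single transcripts in a tissue section with gene-specific probes. Counts of these genes per cell were compared in 6 sections of 5 µm, 1 per condition, from wild-type C57BL/6 mice. On the smaller panel, the E14.5 fetal liver (embryonic day 14.5) and the P8 bone marrow (leg bone at postnatal day 8) shared a slide, and an adult wild-type spleen (NC_spleen, the control spleen) and the spleen of a wild-type mouse given 40 mg/kg phenylhydrazine (PHZ_spleen) shared another. PHZ lyses red cells, and this dose was injected intraperitoneally 2 times a day on 2 days. The E13.5 fetal liver (embryonic day 13.5) and the aged bone marrow (89 weeks old) shared a slide on the larger panel in a later run. With 1 section per condition no test could be made, cells are not replicates, and all intervals below are exact 95% intervals that cover counting error only.

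Stellate cells lie between hepatocytes and the sinusoidal endothelium, store vitamin A and lay down matrix when activated. Their fetal forms arise from mesoderm at the liver surface, which also gives rise to mesothelium. Des encodes desmin, the intermediate filament of muscle and of stellate cells and pericytes, and Pdgfrb encodes the receptor through which PDGF-B recruits pericytes. Lhx2 is a LIM homeobox transcription factor that restrains stellate cell activation, and Colec11 encodes a soluble collectin of the complement system. Wnt2 is a Wnt ligand that sinusoidal endothelium also secretes, Sfrp1 is a secreted inhibitor that binds Wnt ligands, and Igfbp3 encodes the main carrier of insulin-like growth factors in plasma.

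Promoter windows of 300 bases, from 250 before to 50 after the annotated start, were given by RefSeq (GRCm38.p6) for 5 of the 7 genes. Those of Colec11 and Lhx2, the members with the highest ratio of fetal liver to marrow and spleen, and of Des, which had the lowest, are shown with the E-box CAGCTG in capitals. Colec11 lay at chr12:28623281-28623580 on the minus strand, Lhx2 at chr2:38339031-38339330 on the plus strand (the first of 2 windows) and Des at chr1:75360042-75360341 on the plus strand.
Colec11: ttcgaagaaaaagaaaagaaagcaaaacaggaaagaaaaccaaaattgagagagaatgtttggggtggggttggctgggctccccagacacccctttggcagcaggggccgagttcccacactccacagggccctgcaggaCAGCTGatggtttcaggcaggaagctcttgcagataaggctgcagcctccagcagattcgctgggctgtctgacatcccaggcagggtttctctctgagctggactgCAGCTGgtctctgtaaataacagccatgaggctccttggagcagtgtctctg
Lhx2: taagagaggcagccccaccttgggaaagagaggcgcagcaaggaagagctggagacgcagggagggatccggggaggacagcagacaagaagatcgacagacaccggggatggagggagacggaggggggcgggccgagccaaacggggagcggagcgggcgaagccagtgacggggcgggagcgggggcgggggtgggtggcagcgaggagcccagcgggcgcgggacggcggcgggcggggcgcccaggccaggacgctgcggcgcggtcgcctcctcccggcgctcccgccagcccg
Des: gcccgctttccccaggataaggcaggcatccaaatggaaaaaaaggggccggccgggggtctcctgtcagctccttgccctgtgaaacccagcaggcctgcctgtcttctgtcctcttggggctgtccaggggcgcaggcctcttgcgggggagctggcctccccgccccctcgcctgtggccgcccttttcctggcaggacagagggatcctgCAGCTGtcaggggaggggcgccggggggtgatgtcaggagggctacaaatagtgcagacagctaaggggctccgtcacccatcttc
CAGCTG, which reads the same on both strands, stood at -109 and -2 from the start of Colec11 and at -36 from that of Des, and it was in none of the windows of Lhx2, Wnt2 and Igfbp3. Of 32851 mouse promoter windows, 16.3% held it. The wider form CANNTG, of which CAGCTG is a case, was in 72.3% of all windows, and neither TATAAA (13.6% of all windows) nor TAATTA (5.29%) was on either strand of any window of the 5 genes. These are matches of letters and not measured binding sites.

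The sections held between 5285 and 143810 cells and between 1384795 and 20952143 gene transcripts, with medians of 60 to 190 transcripts per cell. Levels are given as CPM, transcripts of a gene per 1000000 gene transcripts of the section. All members had 8 probe sets on the smaller panel and 2 on the larger, so that levels of different members were set side by side only within a panel, and values of the panels were not compared in size. Negative control probes, which match no transcript, reached at most 105 transcripts in the fetal liver of E14.5 and 40 in the P8 section, and 77 and 76 in the control and PHZ spleens. Any 2 sections had between 0 and 6 cell names in common. Fewer cells of a type and less RNA per cell cannot be told apart in the CPM of a whole section.

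Colec11 and Lhx2 were high in the fetal liver and low elsewhere. Colec11 had 592 CPM at E14.5 in fetal liver, 58.6 in the control spleen, 34.9 in the P8 bone marrow and 30.5 in the PHZ spleen. Lhx2 had 733, 57.2, 44.98 and 45.8 CPM in the same order. The fetal liver stood 17.0-fold over the marrow and 10.1-fold over the control spleen for Colec11, and 16.3-fold and 12.8-fold for Lhx2. The marrow and spleen values, between 225 and 607 transcripts per gene, were above the highest negative probe. They were nevertheless within the range of 10 genes of eye, nose, brain, lung, bladder and skin that were picked after their values were seen, whose median was 197, 335 and 323 transcripts in the P8 bone marrow, control spleen and PHZ spleen. Colec11 and Lhx2 were found in 0.366 to 0.552% of the cells of these sections, with at most 3 transcripts in a cell. In the E14.5 fetal liver they were found in 7.71% (7.56 to 7.86) and 8.50% (8.34 to 8.66) of the cells, with up to 14 and 16 transcripts in a cell.

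Des ran the other way. Its level was 278 CPM at E14.5 in fetal liver, 2118 in the control spleen, 3687 in the PHZ spleen and 3943 in the P8 bone marrow. The marrow value was 14.2-fold and the control spleen value 7.63-fold that of the fetal liver. Most Des of the P8 section lay outside its erythroid-rich part. In the 41 blocks of 500 µm that were rich in erythroid markers, a split chosen after seeing the data, Des had 312 CPM, against 13280 in the rest of the section, which held 94.3% of its transcripts. The level in those blocks was close to that of the fetal liver, with a log2 ratio of -0.17 for fetal liver over marrow. In the 34 of these blocks that were also poor in skeletal muscle markers, Des had 86.2 CPM, below the fetal liver, but a low level of a muscle gene was in part set by that choice of blocks. Skeletal muscle markers had 450 CPM in the 34 blocks and 50520 in the rest, and cartilage markers 2295 and 131507.

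Pdgfrb was lowest in the fetal liver, with 838 CPM, and close between the others, with 2316 in the control spleen, 2445 in the P8 bone marrow and 2534 in the PHZ spleen. Igfbp3 was the member with the highest level in the fetal liver (2396 CPM) and in the control spleen (4242 CPM), and it had 2765 CPM in the P8 bone marrow and 1944 in the PHZ spleen. Sfrp1 had 2270 CPM in the fetal liver, 1805 in the control spleen, 817 in the PHZ spleen and 753 in the P8 bone marrow. The lowest of these lay close together, with intervals of 732 to 775 in the marrow and 801 to 834 in the PHZ spleen that did not overlap. Wnt2 was the rarest member of the fetal liver, with 129 CPM, followed by 117 in the control spleen, 73.7 in the P8 bone marrow and 35.0 in the PHZ spleen. The Wnt2 intervals of the fetal liver (125 to 134) and the control spleen (111 to 124) lay next to each other without overlap.

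In the 41 erythroid-rich blocks of the P8 section, Pdgfrb had 1819 CPM, Igfbp3 1715, Sfrp1 603, Wnt2 56.01, Lhx2 44.2 and Colec11 36.8. A fold of at least 1.5 was used as the size rule between sections. Over the P8 bone marrow, 4 of 7 members were higher in the fetal liver (Colec11, Lhx2, Sfrp1 and Wnt2), where 22.6% of all genes were, and 2 were lower (Des and Pdgfrb), where 47% of all genes were. Over the control spleen, 2 of 7 were higher (Colec11 and Lhx2), where 23.8% of all genes were, and 3 were lower (Des, Pdgfrb and Igfbp3), where 55.2% of all genes were. The shares of members that were lower in the fetal liver, 2 of 7 and 3 of 7, were under the background. The comparison with the control spleen depended on the scaling. Per 1000 cells, 4 of 7 members were at least 1.5-fold higher in the fetal liver, where 39.2% of genes were, and 1 was lower, where 35.8% were. Igfbp3 had 428 transcripts per 1000 cells in the fetal liver and 405 in the control spleen, a log2 ratio of 0.0779 in place of -0.824.

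**Figure D1:**
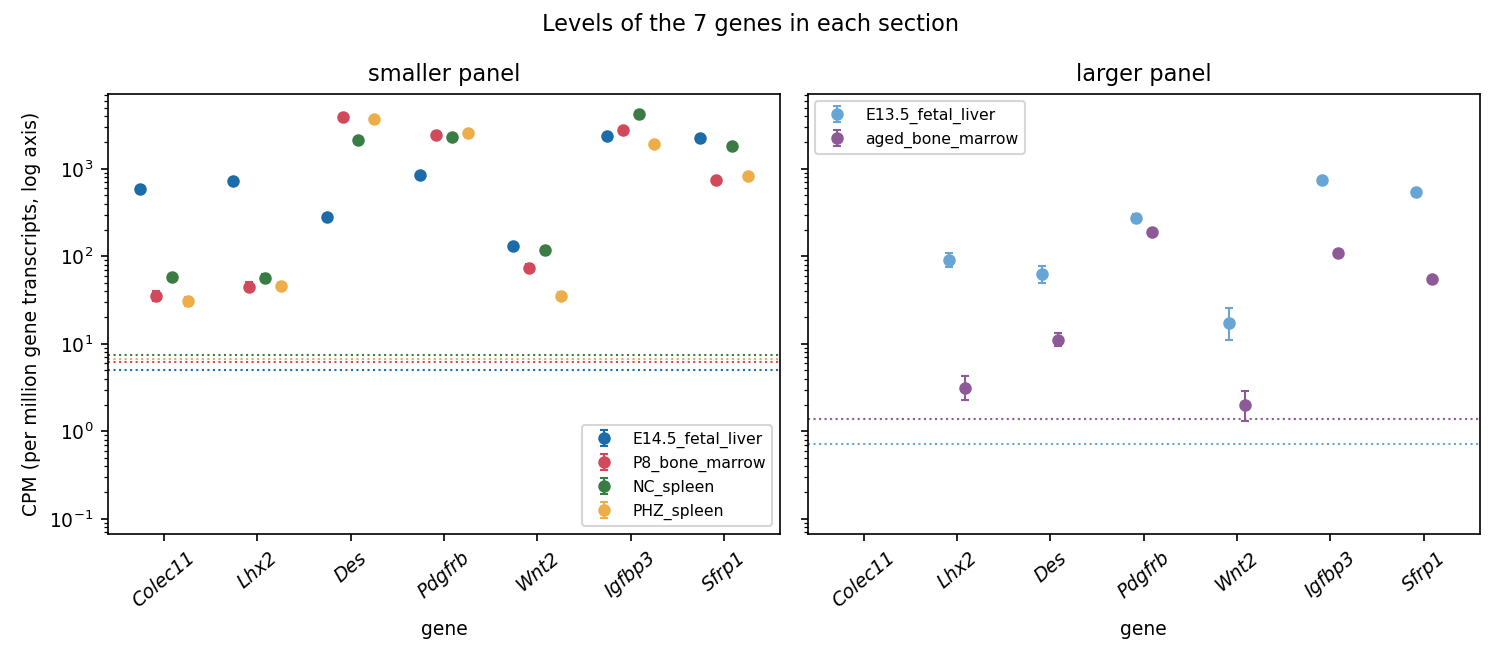
Level of each gene as CPM (transcripts per 1000000 gene transcripts, log axis) in each section, for the smaller panel at left and the larger panel at right, with exact Poisson 95% intervals as bars, many smaller than the points. Dotted lines mark the highest negative control probe of each section; Colec11 and Lhx2 stand apart in the E14.5 fetal liver, at 592 and 733 CPM, and Colec11 was not on the larger panel.

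On the larger panel, all 6 members were lower in the aged bone marrow than in the E13.5 fetal liver, where 49.8% of the 3639 genes with at least 100 transcripts were, and 5 of 6 were at least 1.5-fold lower, where 29% of genes were lower and 32.9% higher by that size. Wnt2 was under that floor. Lhx2 had 126 transcripts (90.99 CPM) in the fetal liver and 41 (3.14 CPM) in the marrow, and Wnt2 had 24 (17.3 CPM) and 26 (1.99 CPM). The highest negative probe had 1 transcript in the fetal liver and 18 in the marrow, so that Lhx2 and Wnt2 of the aged marrow were within 2.28 times that probe. Des had 62.1 and 11.2 CPM, Igfbp3 746 and 109, and Sfrp1 545 and 54.9. Pdgfrb differed least, with 272 CPM (246 to 301) and 191 CPM (184 to 199). The sections differ in age, tissue and preparation, which cannot be told apart.

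The co-detection of the members in the fetal liver was asked next. For each pair, the cells with at least 1 transcript of both genes were counted and divided by the number expected if the genes were independent among cells of like depth, in 10 strata of the total of the other genes. In the E14.5 fetal liver the ratio was at least 2 for 21 of 21 pairs, where 12.4% of all pairs of genes with at least 1000 transcripts reached it. The members were chosen with earlier results of these data known. The co-detection counts here and below therefore describe the list and do not test it. The highest ratio was that of Colec11 and Wnt2, which shared 876 cells against 200 expected, a ratio of 4.39 (4.10 to 4.69). Des and Pdgfrb shared 1929 cells, 4.11 times the expected number (3.93 to 4.30), Colec11 and Pdgfrb 3347 cells (3.95 times) and Colec11 and Lhx2 3117 cells (3.88 times). The lowest ratios were those of Igfbp3, the most widespread member, with Des (2.56), Sfrp1 (2.62) and Pdgfrb (2.64). The median of the 21 pairs was 3.43.

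**Figure D2:**
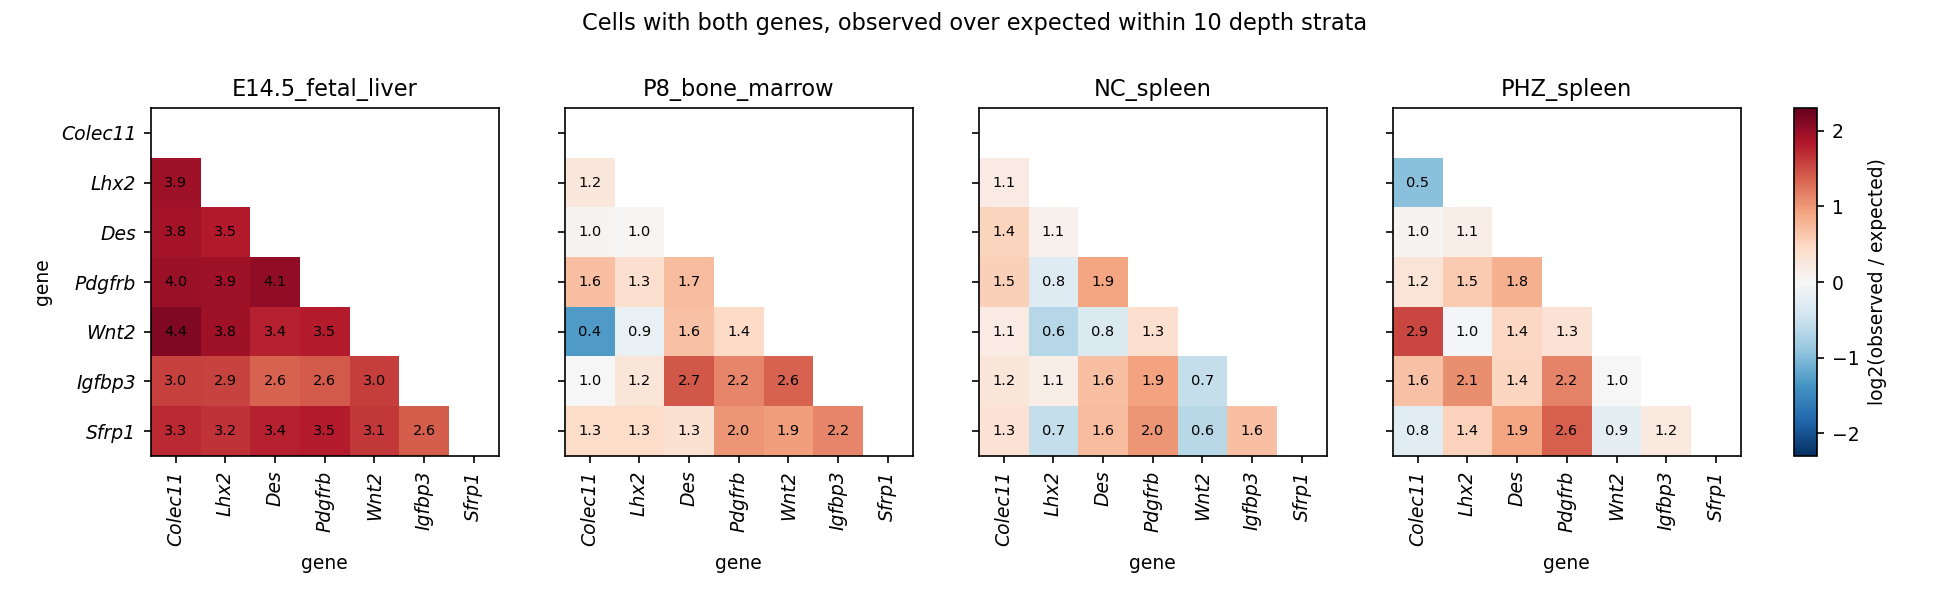
Cells holding both genes of a pair over the number expected within 10 depth strata, for the 4 sections of the smaller panel; color gives log2 of the ratio and the numbers give the ratio. All 21 pairs of the E14.5 fetal liver lie between 2.56 and 4.39, while pairs with Colec11, Lhx2 or Wnt2 in the other sections rest on few cells.

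Cells that held several members were far more frequent in the E14.5 fetal liver than independence gave. Of 117329 cells, 3042 held 4 of the 7 genes, 1671 held 5, 652 held 6 and 95 held all 7. Independence within depth strata gave 254, 15.5, 0.503 and 0.00648 such cells. At the other end, 76394 cells (65.1%) held none, against 57120 expected. The median depth of the cells with 5 members was 197 transcripts and that of the cells with none 160. The other sections of the smaller panel also exceeded independence, by less at 4 and at 5 members. At 3 members the P8 bone marrow (3.05 times) and the PHZ spleen (2.98 times) exceeded it by more than the E14.5 fetal liver (2.10 times). In the P8 bone marrow, 229 cells held 4 and 26 held 5, against 46.8 and 1.56 expected. The control spleen had 1383 and 35 such cells (227 and 6.35 expected), and the PHZ spleen 369 and 11 (52.8 and 0.656 expected). No cell of these sections held 6 or all 7, for which the upper 95% limits were 0.00701%, 0.00341% and 0.0039% of the cells. Independence gave only 0.0212, 0.0639 and 0.0031 cells with 6 in these sections.

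**Figure D3:**
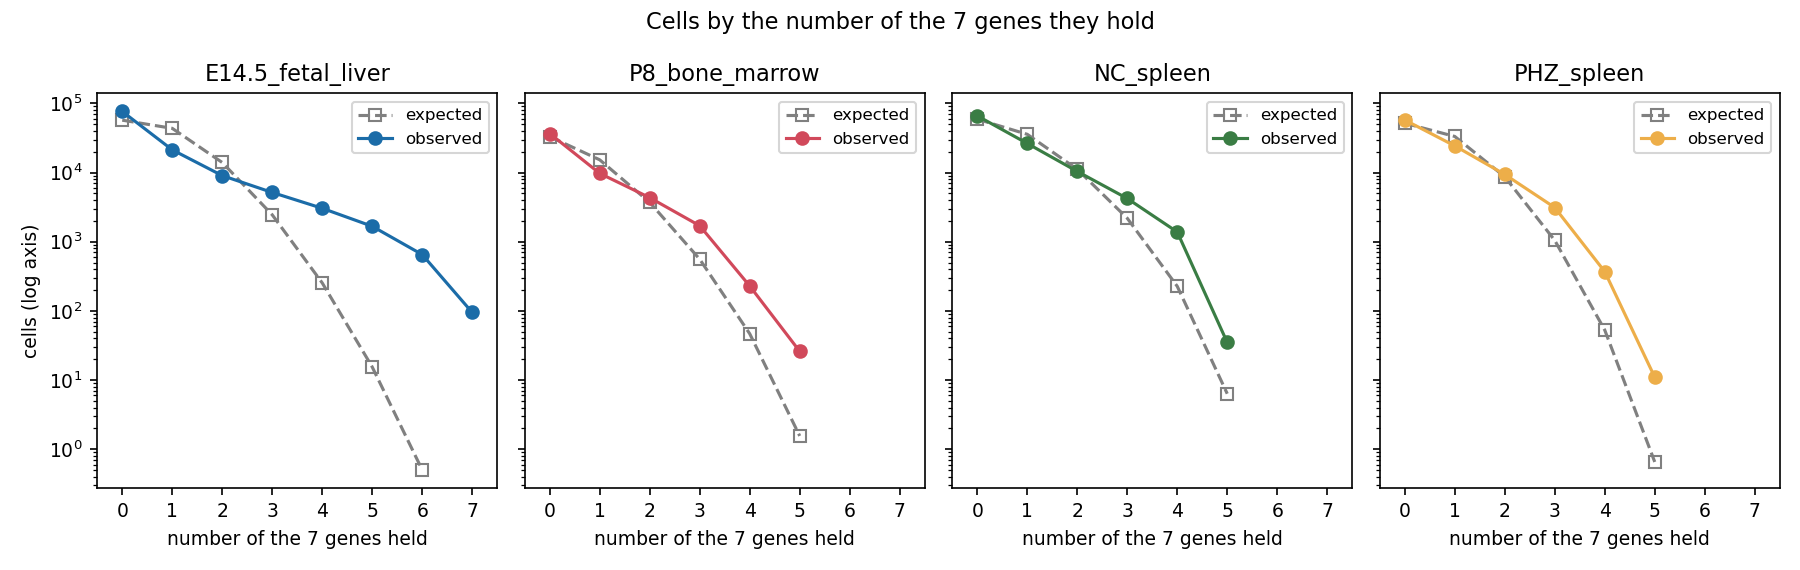
Number of cells (log axis) by how many of the 7 genes they hold, observed (filled circles) and expected within 10 depth strata (open squares; expectations under 0.3 cells are not drawn). At 4 or more genes the E14.5 fetal liver departs most from its expectation, with 652 cells at 6 genes against 0.503 expected and 95 cells at 7.

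The cells that held members carried other stromal transcripts as well. The other stroma list, of 16 genes such as Pdgfra, Col1a1, Col1a2, Lum and Mfap4, contained no member. Its level, with the members left out of the total, was 8161 CPM in E14.5 cells with no member, 16950 with 1, 44540 with 2 and 106661 with at least 3 (10611 cells, 9.04% of all). The mural and smooth muscle list went from 1078 to 12590 CPM and the endothelial list from 8880 to 34150 CPM between the cells with none and those with at least 3. Hepatocyte markers went the other way, from 61640 to 31210 CPM, and erythroid markers from 353984 to 250523 CPM. These are sums over cells of 1 section, and an outline drawn as an expanded nucleus can take in transcripts of adjacent cells. With transcripts over the nucleus alone, the 21 ratios ran from 3.38 to 6.81, where 16.7% of all pairs reached 2. Compared only within tiles of 200 µm they ran from 2.16 to 4.12, where 8.3% of all pairs reached 2. Des with Pdgfrb, at 4.11 over the section, was at 2.35 within tiles, whereas Colec11 with Wnt2 went from 4.39 to 4.12.

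The section also held 6 blocks of 500 µm with 2949 cells in which the other stroma list was over 100000 CPM, and in which Sfrp1 had 19730 CPM against 1828 elsewhere. Those blocks held 21.5% of the Sfrp1, 14.7% of the Des and 12.5% of the Pdgfrb transcripts, but 1.51% of the Lhx2 and 4.71% of the Colec11 transcripts. Without them, an alternative chosen after seeing the data, all 21 pairs stayed at 2 or above, from 2.69 to 4.56, where 11.9% of all pairs did. Levels differed widely between the blocks of the section. Sfrp1 ran from 824 to 25790 CPM, Lhx2 from 166 to 4325, Pdgfrb from 281 to 5653 and Des from 102 to 1939, whereas Wnt2 ran from 49.3 to 355 and Igfbp3 from 1391 to 6806.

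Members differed in the genes most often found in the same cells of the E14.5 fetal liver. The 3 leading partners of Colec11 were Sod3, an extracellular superoxide dismutase (4.93), Wnt2 and Fbln5, an elastic fiber protein (4.13). Those of Wnt2 were Sod3 (5.70), Colec11 and Fbln5 (4.17). Igfbp3 also had Sod3 (3.27) and Fbln5 (3.27) first. Des, Pdgfrb and Sfrp1 had Mfap4, a microfibril-associated protein, at 6.19, 5.90 and 4.45, and Upk1b, a uroplakin of mesothelium, at 6.41, 5.63 and 4.32. Fzd2, a Wnt receptor, was the third partner of Des (5.93) and Pdgfrb (5.55), and Nnat that of Sfrp1 (4.23). The leading partners of Lhx2 were the uroplakin genes Upk3b (5.16) and Upk1b (5.03) and Ackr3, a scavenger receptor of CXCL12 (4.68). These ratios are descriptions of cells of 1 section, with no test.

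In the smaller E13.5 fetal liver section, of 5285 cells, 13 of 15 pairs of the 6 members had a ratio of at least 2, where 1.51% of all pairs of genes with at least 100 transcripts did. Des and Wnt2 were under that floor, and 3 of the 13 pairs had fewer than 3 expected cells, Lhx2 with Wnt2 (3 cells, 3.50, 0.721 to 10.2), Lhx2 with Des (8 cells, 2.68, 1.16 to 5.28) and Pdgfrb with Wnt2 (10 cells, 4.43, 2.12 to 8.14). Pdgfrb and Sfrp1 shared 132 cells against 43.5 expected, a ratio of 3.03 (2.54 to 3.60). Lhx2 and Pdgfrb shared 38 (3.62, 2.56 to 4.96), and Igfbp3 and Sfrp1 189 (2.44, 2.10 to 2.81). The exceptions both involved Wnt2, with 4 cells for Wnt2 and Sfrp1 (1.09, 0.298 to 2.80) and none for Des and Wnt2, where 0.676 were expected. In this section 28 cells held 4 members, against 1.11 expected (25.3 times), and 1 held 5, against 0.0268 expected.

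The larger panel held stroma genes that were not on the smaller one, and members were set beside them. Reln, which encodes the extracellular protein reelin and is a marker of hepatic stellate cells, was in 13.6% of the E13.5 cells. It was in 43.5% of the cells with Lhx2 (ratio 2.15, 1.59 to 2.83), 41.2% of those with Pdgfrb (1.91, 1.58 to 2.29), 35.8% of those with Igfbp3 (1.87, 1.62 to 2.14) and 35.2% of those with Sfrp1 (1.695, 1.45 to 1.97). Hgf, the hepatocyte growth factor that stellate cells make in liver, was at 5.18 times its expected number with Lhx2 (11 cells, 2.59 to 9.27) and at 3.08 to 3.44 times with Pdgfrb, Igfbp3 and Sfrp1. With Des (3 cells, 1.94, 0.401 to 5.68) and Wnt2 (1 cell, 2.26, 0.0572 to 12.6) its intervals included 1. Hand2, a transcription factor of liver mesenchyme, was at 4.09 times with Pdgfrb (31 cells) and 3.65 times with Lhx2 (11 cells), and its intervals included 1 with Des (4 cells, 1.81, 0.492 to 4.62) and Wnt2 (1 cell, 1.61, 0.0408 to 8.97). Reln was at 1.65 times with Des (29 cells, 1.10 to 2.36) and 2.19 times with Wnt2 (11 cells, 1.10 to 3.93). Kitl, which encodes stem cell factor, was at 1.10 times with Igfbp3 (0.798 to 1.49) and 1.12 times with Pdgfrb (0.734 to 1.65), intervals that include 1. Lhx2 had Shisa3 (4.27), Rspo3 (4.20) and Tnc (4.19) as leading partners, Pdgfrb had Col9a2 (4.45), and Des had Col6a2 (3.86) and Lum (3.49). In the aged bone marrow Reln was in 0.380% of the cells and was not above its expected number with Pdgfrb (8 cells, 0.649, 0.280 to 1.28).

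In the P8 bone marrow, 5 of 21 pairs reached a ratio of 2, where 9.69% of all pairs did. They were Des with Igfbp3 (2120 cells, 2.69), Wnt2 with Igfbp3 (200 cells, 2.57), Igfbp3 with Sfrp1 (1356 cells, 2.18), Pdgfrb with Igfbp3 (3200 cells, 2.17) and Pdgfrb with Sfrp1 (1485 cells, 2.01). Colec11 and Lhx2, with 219 and 287 cells, were in none of them and shared 2 cells, against 1.66 expected. Colec11, Lhx2 and Wnt2 were under the floor of 1000 transcripts that the background used. The leading partners of Des were the sarcomere and triad genes Ttn (7.55), Trdn (7.53) and Myoz2 (7.44). Wnt2 had Igfbp6 (6.003), Gap43 (5.80) and Mfap5 (5.74), and Igfbp3, Sfrp1 and Pdgfrb each had Col8a1, a short-chain collagen, first (3.38, 3.33 and 2.59).

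Cells with Des in the P8 section were counted positive for the skeletal muscle list, with at least 3 of its transcripts, 9.17 times the expected number (8.87 to 9.48), and these cells held 95.8% of the Des transcripts. They were positive for the erythroid list at 0.392 times the expected number (0.370 to 0.416). Wnt2 was unevenly spread, with 855 CPM in its richest block and a median of 22.8 over 46 blocks. Des ran from 27.9 to 43950 CPM with a median of 229. Pdgfrb was the more evenly spread, from 286 to 8291 CPM with a median of 2824.

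In the aged bone marrow, Pdgfrb and Igfbp3 shared 148 cells against 30.01 expected (4.93, 4.17 to 5.79), Pdgfrb and Sfrp1 66 (4.27, 3.30 to 5.43) and Igfbp3 and Sfrp1 30 (3.28, 2.22 to 4.69). The 3 pairs of Des with these genes ran from 3.09 to 5.52 on 5 to 9 shared cells, with fewer than 3 expected, and the 9 pairs with Lhx2 or Wnt2 rested on at most 2 shared cells. Genes of the reticular stroma that supports hematopoiesis in marrow were in the same cells. Of the 2054 cells with Pdgfrb, 74.8% held Cxcl12, the chemokine that retains stem cells (ratio 2.24, 2.13 to 2.35), 25.7% held the leptin receptor gene Lepr (6.33, 5.80 to 6.90), 21.4% Kitl (5.50, 4.99 to 6.03) and 12.2% Adipoq (4.30, 3.78 to 4.87). Lepr was at 4.84 times its expected number with Igfbp3 (238 cells) and at 4.01 times with Sfrp1 (102 cells). Kitl, near 1 with Igfbp3 in the E13.5 fetal liver, was at 4.47 times here (3.89 to 5.12). Cxcl12 was above its expected number in both sections, at 1.82 times with Lhx2 (1.34 to 2.41) and 1.72 times with Pdgfrb (1.42 to 2.05) in the E13.5 fetal liver. The differences between these sections of the larger panel were not tested. The leading partners of Pdgfrb were Notch3, a receptor of mural cells (9.28), Ebf3, a transcription factor of marrow reticular cells (8.52), and Cyp1b1 (8.36). Igfbp3 had Gdpd2 (6.09) and Ebf3 (5.23), and Sfrp1 had Mmp13 (6.02) and Tnc (5.97), both of matrix turnover. Lhx2 and Wnt2 were in 40 and 26 cells, too few for ratios of pairs. The share of all pairs of genes that reach a ratio of 2 was not computed in the aged bone marrow, so its ratios stand without a background.

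In the control spleen 1 of 21 pairs reached 2, Pdgfrb with Sfrp1 (4114 cells, 2.02, 1.96 to 2.08), where 5.41% of all pairs did. Des with Pdgfrb stood at 1.87 and Pdgfrb with Igfbp3 at 1.90. Wnt2 was found less often than expected with Igfbp3 (181 cells, 0.683, 0.587 to 0.790) and with Sfrp1 (97 cells, 0.639, 0.518 to 0.779), and more often with Pdgfrb (226 cells, 1.30, 1.14 to 1.48). Colec11 and Lhx2 were under the floor of 1000 transcripts for the background here. The cells with Wnt2 were positive for the endothelial list, which includes Kdr, Plvap and Cd93, at 3.87 times the expected number (3.61 to 4.15), and list-positive cells held 79.7% of its transcripts. Its leading partners were Ltc4s (10.7), 5330417C22Rik (9.69) and Ccn3 (7.72). Colec11 was rare, and of the 598 cells that held it 24 also held the mesothelial gene Upk3b (5.54, 3.55 to 8.25) and 44 Igfbp6 (5.03, 3.65 to 6.75). Lhx2 had no partner above Il2ra (1.88).

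In the PHZ spleen 4 of 21 pairs reached 2, where 8.59% of all pairs did. Pdgfrb with Sfrp1 (2332 cells, 2.60), Pdgfrb with Igfbp3 (3376 cells, 2.20) and Lhx2 with Igfbp3 (121 cells, 2.09) rested on at least 121 cells each, and Colec11 with Wnt2 (2.89, 0.787 to 7.39) on 4. Colec11, Lhx2 and Wnt2, which are in 2 of these pairs, were under the floor of the background. Igfbp3 with Sfrp1 was at 1.18 (1.09 to 1.26), against 1.61 (1.57 to 1.66) in the control spleen. Igfbp3 had Dsc3 (4.64), Cxcl13, the chemokine of B cell follicles (3.75), and Fbln5 (3.73) as leading partners. Sfrp1 had Cnn1, the smooth muscle calponin (6.84), Itga8 (6.79) and Upk3b (6.54). In the control spleen the leading partners of Igfbp3 were Dsc3 (2.18), Sod3 (2.15) and Ecrg4 (2.01), and those of Sfrp1 Igfbp6 (2.89), Lum (2.65) and Mfap4 (2.61).

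Members were then set beside the marker lists in each section. With the other stroma list, 7 of 7 members had a ratio of at least 1.5 in the E14.5 fetal liver, from 1.92 for Igfbp3 to 2.44 for Pdgfrb, where 23.4% of genes outside the list did. With the mural and smooth muscle list, Des (5.56), Pdgfrb (4.90), Sfrp1 (3.91) and Colec11 (3.77) were ahead of Lhx2 (2.997), Wnt2 (2.83) and Igfbp3 (2.53). Ratios with the mesothelial list were near 1, from 0.752 for Wnt2 to 1.35 for Pdgfrb. That list also holds Krt8, a keratin that hepatocytes express, and 14.4% of all cells were positive for it. In the E13.5 fetal liver the members stood between 2.56 (Igfbp3) and 3.39 (Pdgfrb) with the shorter other stroma list of the larger panel.

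With the same list, 2 of 7 members reached 1.5 in the P8 bone marrow (Des at 1.56 and Igfbp3 at 1.51), where 17.3% of genes did, but 60.5% of all cells of that section were list-positive. The count was 5 of 7 when a positive cell needed at least 5 list transcripts, where 35.4% of genes reached 1.5, or 3 over the nucleus, where 35% did. With the limit of 3 in the whole cell, Pdgfrb at 1.47, Sfrp1 at 1.43 and Wnt2 at 1.37 lay just under the limit. In the control spleen 4 of 7 did (Des, Pdgfrb, Igfbp3 and Sfrp1), where 17% of genes did, and in the PHZ spleen the same 4 did, where 30.6% of genes did. These shares are over genes with at least 1000 transcripts. Colec11 and Lhx2 in the marrow and both spleens, and Wnt2 in the marrow and PHZ spleen, were under that floor. Sfrp1 in the PHZ spleen was at 7.92 (6.88 to 9.08) with the mesothelial list, which held 206 of its 5260 cells and 5.88% of its transcripts. In the control spleen that ratio was 2.69 (2.22 to 3.23). Igfbp3 in the PHZ spleen was at 0.539 (0.523 to 0.556) with the erythroid list and at 1.72 (1.63 to 1.82) with the T and NK cell list, against 0.895 and 0.844 in the control spleen. In the aged bone marrow Pdgfrb was at 7.37 (6.10 to 8.84) and Sfrp1 at 6.15 (4.12 to 8.84) with the other stroma list.

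**Figure D4:**
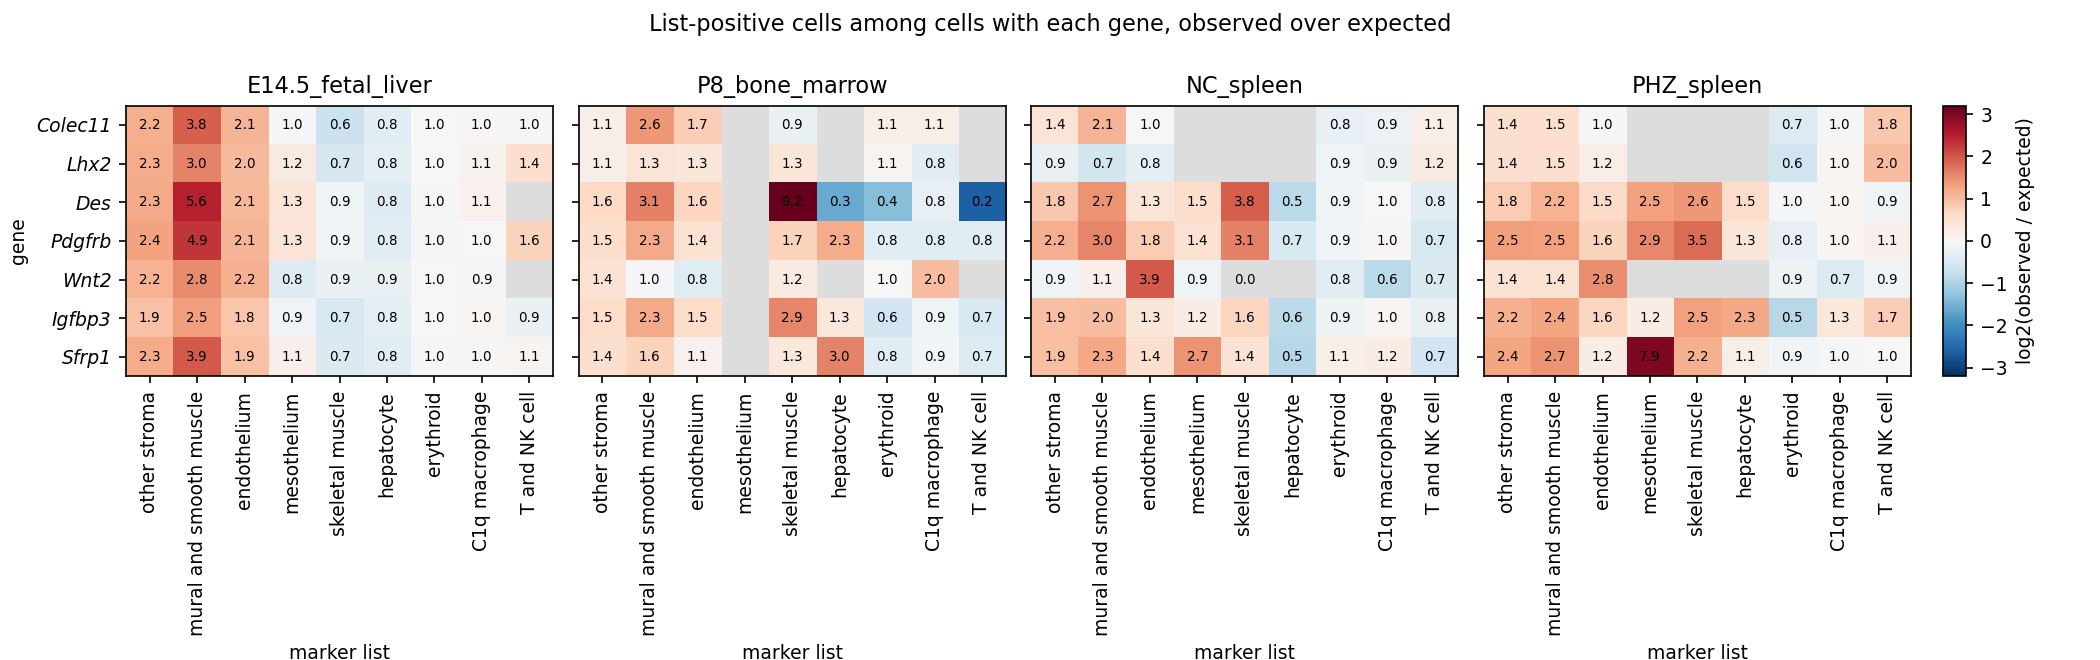
Cells with each gene (rows) that are positive for each marker list (columns, at least 3 transcripts of the list), over the number expected within 10 depth strata, for the 4 sections of the smaller panel; color gives log2 of the ratio and numbers the ratio, and grey cells have an expectation under 3 or no cell observed. Des stands at 9.2 with skeletal muscle in the P8 bone marrow, Wnt2 at 3.9 with endothelium in the control spleen and Sfrp1 at 7.9 with mesothelium in the PHZ spleen.

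Around cells with a member, within 20 µm and without the cell itself, the member's own transcripts were above the section mean. The ratio was at least 1.5 for 7 of 7 members in the E14.5 fetal liver (1.65 for Igfbp3 to 3.36 for Des), where it was for 60.3% of genes. It was for 6 of 7 in the P8 bone marrow, where it was for 65.6% of genes, for 5 of 7 in the control spleen, where it was for 66.9%, and for 7 of 7 in the PHZ spleen, where it was for 79.9%. The background covered genes with at least 1000 transcripts. Colec11 and Lhx2 in the marrow and both spleens, and Wnt2 in the marrow and PHZ spleen, were under that floor. The background was high in every section, so that nothing is read from these counts about the members. Des in the P8 bone marrow was at 21.2, rank 15 of 253 genes with a median of 2.05, but at 1.19 when compared with cells of the same 200 µm tile. Sfrp1 in the PHZ spleen was at 6.59, rank 24 of 273 genes with a median of 2.09, and at 2.08 within tiles. Around cells with Sfrp1 in that spleen, mesothelial markers were at 6.12 times the section mean, and at 2.24 within tiles. Around cells with Igfbp3 in the PHZ spleen, erythroid markers were at 0.378 and T and NK cell markers at 1.55 times the section mean, against 1.05 and 0.902 in the control spleen.

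The share of transcripts lying over the nucleus also differed between members. In the E14.5 fetal liver it was 42.8% for Des and 43.9% for Sfrp1, and 54.7% for Colec11, where all genes together had 57.2%. Des in the P8 bone marrow had 16.8% (16.4 to 17.3), the fourth lowest of 253 genes, and in the PHZ spleen 28.1% (27.7 to 28.5), rank 8 of 273, against 44.4% (43.7 to 45.0) in the control spleen. Colec11 and Lhx2 had the opposite in the spleens, with 70.8% and 79.4% in the control spleen and 76.4% and 74.0% in the PHZ spleen, where all genes together had 58.9% and 51.0%. The same held in the P8 bone marrow, with 65.8% and 64.1% where all genes together had 48.9%. These values rest on 225 to 607 transcripts per gene.

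PHZ_spleen and NC_spleen were compared last, to see how the members stood in a spleen with stress erythropoiesis. Des was higher in the PHZ spleen, with 42144 transcripts against 21924, a log2 ratio of CPM of 0.80 (0.78 to 0.82). Wnt2, Sfrp1, Igfbp3 and Colec11 were lower. Wnt2 had 400 transcripts against 1215 (-1.75, -1.91 to -1.58), Sfrp1 9338 against 18681 (-1.14, -1.18 to -1.11), Igfbp3 22224 against 43912 (-1.13, -1.15 to -1.10) and Colec11 348 against 607 (-0.95, -1.14 to -0.75). Pdgfrb, at 28967 against 23971 (0.13, 0.10 to 0.16), and Lhx2, at 523 against 592 (-0.32, -0.49 to -0.15), were within 1.5-fold.

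By that rule 1 of 7 members was higher, where 16.5% of the 472 genes with at least 100 transcripts were, and 4 of 7 were lower, where 41.5% of genes were. Both shares are close to the background. The median log2 ratio was -0.95 over the members and -0.45 over all genes. The 10 erythroid genes were all higher, with a sum 8.72-fold that of the control spleen, and the 6 T and NK cell genes were all lower. The choice of scaling moved the genes near 0 to either side. Lhx2 was at 0.02 per cell, at 0.13 after centring on the median of all genes and at -0.77 per area, which is over 1.5-fold lower, and Pdgfrb was at -0.32 per area. Des stayed above 0 under all scalings but was at 0.35 both per area and over the nucleus alone, which is under 1.5-fold. Centred on the median of all genes, Colec11 was at -0.49, also under 1.5-fold. Wnt2, Igfbp3 and Sfrp1 were at least 1.5-fold lower under every scaling tried.

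**Figure D5:**
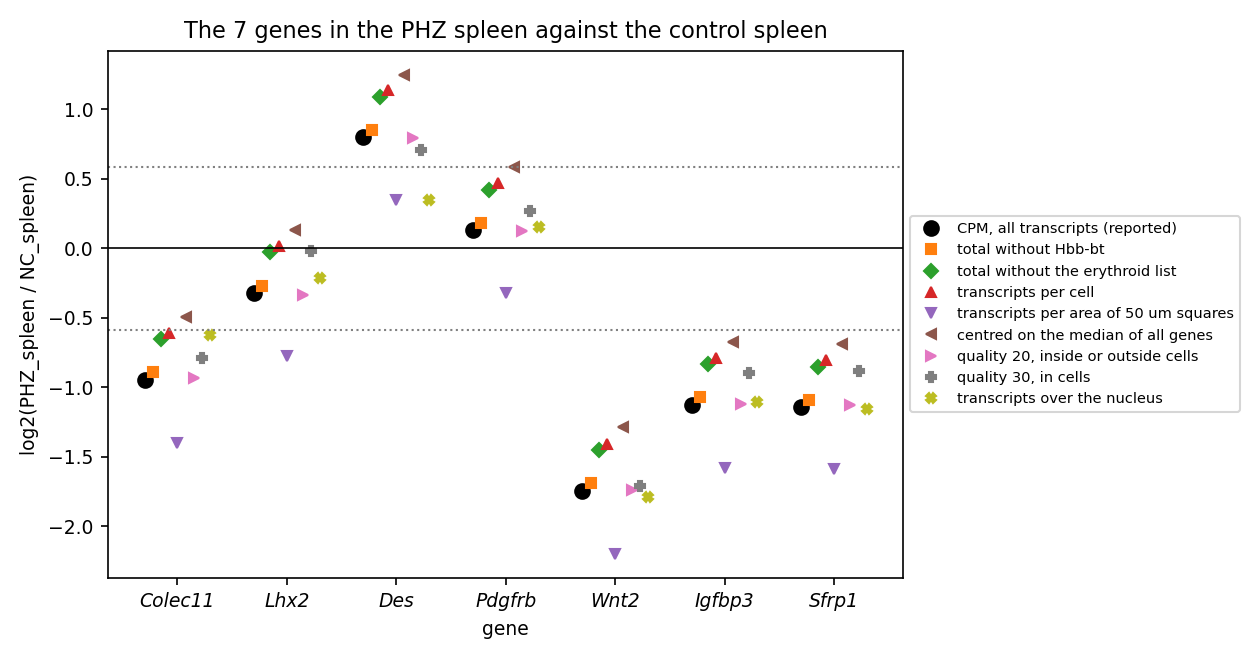
log2 ratio of the PHZ spleen to the control spleen for each gene, as CPM of all transcripts (large black circles) and under 8 other scalings or transcript sets; dotted lines mark a fold of 1.5. Wnt2, Igfbp3 and Sfrp1 lie below the lower line under all settings, Des lies above 0 under all, and Lhx2 and Pdgfrb lie on both sides of 0.

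Des was found in 14.5% of the control spleen cells and 25% of the PHZ spleen cells, and a cell that held it had 1.40 and 1.78 transcripts on average. At least 3 Des transcripts were in 1.10% and 4.15% of the cells. Igfbp3 went the other way in the share of cells, with 20.9% and 11.1%, while a cell that held it had 1.94 and 2.11 transcripts. Sfrp1 was in 10.4% and 5.56% of the cells, with 1.65 and 1.78 transcripts per cell that held it. Wnt2 was in 0.986% and 0.403% of the cells.

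Spread within each spleen was wide. Over blocks of 500 µm, Des ran from 1186 to 4109 CPM in the control spleen, with a median of 2225 over 26 blocks, and from 1210 to 6031 in the PHZ spleen, with a median of 3598 over 40 blocks. Igfbp3 ran from 2603 to 8897 (median 3824) and from 254 to 6544 (median 927). Sfrp1 ran from 444 to 11730 (median 1902) and from 37.0 to 3962 (median 695), and Wnt2 from 12.2 to 191 (median 134) and from 0 to 127 (median 28.5). The blocks of the spleens overlapped for each of these genes, and blocks of 1 section are not replicates.

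Within cells positive for the other stroma list, 29297 in the control spleen and 28733 in the PHZ spleen, the members kept the directions that their CPM had in the whole section. Of the 16 genes that define this class, 2 were higher and 10 lower as CPM. The part of this shift in make-up in the values of the class was not tested. Per cell of that kind the log2 ratio was 1.02 for Des, 0.41 for Pdgfrb, -0.87 for Igfbp3, -0.85 for Sfrp1 and -1.06 for Wnt2. Lhx2 was the exception, at 0.60 (0.30 to 0.91) on 151 and 225 transcripts, where the whole section had -0.32 as CPM and 0.02 per cell. These shifts were not particular to that class, and a cell could be positive for several lists. Des was at 1.45 per endothelium-positive cell, 1.23 with C1q macrophage markers, 1.22 with T and NK cell markers and 0.958 with erythroid markers. Igfbp3 was at -1.77 per erythroid-positive cell and -0.605 with C1q macrophage markers, but at 0.157 (0.0938 to 0.22) with T and NK cell markers. In endothelium-positive cells, Wnt2 had 13.3 transcripts per 1000 cells in the PHZ spleen and 51.7 in the control spleen, a log2 ratio of -1.96 (-2.18 to -1.75), and the share of its transcripts in these cells was 56.5% against 79.7%. The endothelial list itself was at least 1.5-fold lower in the PHZ spleen for 6 of its 10 genes and higher for 2, Eng (0.60) and Lyve1 (0.70), with a median log2 ratio of -1.25 and a sum 0.69-fold that of the control spleen. Kdr was at -1.28 and Plvap at -1.21, Cd93 was within 1.5-fold at 0.54, and the part of this shift in the Wnt2 value was not tested. In mural-positive cells, which were 6.55% of the control and 15.1% of the PHZ spleen cells, Des was at 0.49 and Pdgfrb at -0.21 per cell, whereas Igfbp3 was at -1.05 and Sfrp1 at -1.24. Tagln alone of the 7 genes that define this class was higher as CPM, at 1.38, and the others lay between -0.49 and -0.12, and the part of this shift in make-up in the values per class was not tested.

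Of the 11 other genes of the PDGF, WNT and IGF lists, 5 were at least 1.5-fold lower in the PHZ spleen and 0 higher, where 41.5% and 16.5% of all genes were, so the share of lower genes was near the background. Of the WNT list with its members, 0 of 6 genes were at least 1.5-fold higher and 4 lower, with a median log2 ratio of -1.23. Besides Wnt2 and Sfrp1 these were Sostdc1, a secreted antagonist (-3.30, 251 transcripts against 2232), and Wnt3 (-1.32, 103 against 233), while the receptor gene Fzd2 was at -0.58 and the inhibitor gene Wif1 at -0.42. Of the PDGF list, 0 of 4 were higher and 2 lower, the ligand genes Pdgfb (-1.22) and Pdgfa (-0.87), and the receptor gene Pdgfra was at 0.31. Of the IGF list, 0 of 5 were higher and 2 lower, Igfbp3 and Igfbp7 (-0.66), and Igf1 was at -0.56. Of the 16 other stroma genes, 2 were higher, among them Col1a1 (1.59), and 10 were lower, led by Lum (-1.84), Fbln5 (-1.68) and Ccdc80 (-1.65). Their sum was 1.03-fold that of the control spleen. Of the 7 mural and smooth muscle genes 1 was higher, Tagln (1.38), and none was lower.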

How the data were processed

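Per the file headers, the authors deposited counts of decoded transcripts per gene and cell from 6 Xenium sections, made by the instrument's software, together with a quality score for each transcript on the smaller panel. Cells on the smaller panel were expanded nuclei, and those on the larger panel were outlined with boundary and interior stains. The genome build is not given in the sources used here. All deposited cells were kept, and doublets were not called. Members and lists were chosen with earlier results of these data known.

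Each section was 1 sample, so no test was made. CPM had exact Poisson intervals, shares exact binomial intervals and ratios of the spleens exact conditional binomial intervals, at 95%. Co-detection was taken over 10 strata of the total of other genes. A cell was list-positive with at least 3 transcripts of a list, and could be positive for several. Partners named were the 3 genes with the highest ratio, with at least 1000 transcripts (100 in the E13.5 fetal liver) and 20 shared cells, along with genes of the PDGF, WNT, IGF and stroma lists. Genes of the added stroma list for the larger panel and leading genes of marker lists were named as well. Levels by number of members held and shares of all genes under other settings were added after seeing the data. A gene of the other stroma list is not reported here by name. Functions were tested on simulated data. Python 3.11.15, numpy 2.4.6, scipy 1.17.1, numba 0.67.0, pandas 2.3.3 and matplotlib 3.10.9 were used. The alternatives were other strata, thinned cells, nuclear transcripts, tiles, radii, list limits, totals and quality limits, and 3 splits by blocks of 500 µm.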

Additional observations from a re-analysis of the deposited data

How the results depend on the processing

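No paired analysis was possible because each condition had 1 section, and for the same reason no replicate could be left out. In the erythroid-rich blocks of the P8 section, 1 member in place of 2 was at least 1.5-fold lower in the E14.5 fetal liver, with or without the limit on muscle markers (46.6% and 47.4% of all genes). The log2 ratio of Des for fetal liver over marrow, -3.83 in the whole section, was 1.69 with that limit, which itself selects against Des, and -0.169 without it. Per 1000 cells, 4 members in place of 2 were higher (39.2% of all genes) and 1 in place of 3 lower (35.8%) in the E14.5 fetal liver than in the control spleen, and Igfbp3 was at 0.0779 in place of -0.824 on the log2 scale. The number of members higher in the PHZ spleen was 0 in place of 1 per area (12.7% of all genes) and over the nucleus (15.4%). The number of members at 1.5 or above with the other stroma list in the P8 bone marrow was 5 in place of 2, both with at least 5 list transcripts (35.4% of all genes) and over the nucleus (35%). For the members' own transcripts around their cells, 4 in place of 7 reached 1.5 within 40 µm in the E14.5 fetal liver (38.4% of all genes), and within tiles of 200 µm 0 in place of 6 did in the P8 bone marrow (20.9%), 3 in place of 5 in the control spleen (45.7%) and 4 in place of 7 in the PHZ spleen (44%). The cause of these shifts was not tested. The other 57 alternatives to a count or summary stayed within 1.5 times the reported value. Among single genes and pairs, 163 values stayed within their counting interval, 236 moved beyond it and 2 that had passed 1.5-fold changed sign, the Des and Igfbp3 values above. Another 7 values within 1.5-fold changed side. Igfbp3 for fetal liver over marrow, at -0.207, was at 0.336 per 1000 cells and at 0.477 and 0.482 in the erythroid-rich blocks with and without the muscle limit. For PHZ over control spleen, Lhx2, at -0.322, was at 0.0171 per cell and 0.13 when centred, and Pdgfrb, at 0.13, was at -0.321 per area. The ratio of Wnt2 with the other stroma list in the control spleen was 1.13 in place of 0.907 without strata. Pairs with under 3 expected cells are not in these counts, and values of Colec11, Lhx2 and Wnt2 outside the fetal liver rest on few transcripts.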
